A study of Mus musculus with 30 samples.

Results

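Expression of 8 cholesterol synthesis genes was followed through 30 bulk RNA-seq libraries of mouse embryonic stem cells (mESCs). Of the 8, *Hmgcs1*, *Idi1*, *Fdft1*, *Sqle*, *Lss* and *Cyp51* encode enzymes of the pathway, while *Insig1* and *Srebf2* encode parts of the switch that sets its activity. The genes were found as the rows of the count table whose Ensembl identifier carries their symbol in GENCODE M21, which gave 8 of the 55421 genes in the table. All 8 exceeded a mean of 5 TPM (a level scaled to transcript length and to the library) in XX *Rnf12*+/- cells, the filter that left 11703 genes for testing.

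Cells build cholesterol from acetyl-CoA. *Hmgcs1* encodes the cytosolic HMG-CoA synthase of the early pathway, *Idi1* isomerises isopentenyl diphosphate, *Fdft1* encodes squalene synthase, *Sqle* encodes squalene epoxidase, *Lss* cyclises the epoxide to lanosterol and *Cyp51* demethylates lanosterol. When sterols run low in the endoplasmic reticulum, the transcription factor SREBP2, encoded by *Srebf2*, travels to the Golgi, is cut by the proteases encoded by *Mbtps1* and *Mbtps2* and activates these genes. INSIG1 holds the SREBP complex in the endoplasmic reticulum and its gene is itself an SREBP target. Most enzymes of the pathway are encoded on autosomes, but *Ebp* and *Nsdhl* and the protease gene *Mbtps2* lie on the X chromosome, the chromosome whose dose this study varied.

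All cells derived from female F1 hybrid mESCs of line F1 2-1, which carry 1 *Mus* (129/Sv) and 1 *Cast* set of chromosomes, and were cultured with serum and LIF on mouse embryonic fibroblasts that were removed by pre-plating before RNA was taken. The groups were XX wild type (2 libraries), XX *Rnf12*+/-, in which *Rnf12* was deleted on the *Mus* X (2 libraries), the XO lines XCastOMus and XMusOCast, which had lost the whole *Mus* or the whole *Cast* X (2 libraries each), and 13 lines with a heterozygous X-chromosome deletion. By the paper's methods, the XO lines arose during the targeting of X-chromosome regions, when some cells lost a whole X. The deletions were made on top of the *Rnf12* deletion and the deletion lines kept a neomycin cassette. A, B, AB and C-G were 1 clone with 1 library each. C, D, E, F, H, I, I-TEL, J and K were 2 clones each. I-TEL and J came from a second *Rnf12*+/- founder. Because XX *Rnf12*+/- of the first founder was the parent of the other deletion lines, it is the reference below. For I-TEL and J, founder and deletion cannot be told apart in a comparison with it. The p-values measure the spread between clones or cultures of 1 hybrid line.

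The libraries fell into 3 series that differ in depth or read type. The first held Deletion E with the XX wild type and XX *Rnf12*+/- cells (6 libraries of 20375194 to 21181405 counts, paired reads), the second held the other 12 deletion lines (20 libraries of 8816184 to 10680026 counts, paired reads) and the third the 4 XO libraries (14998265 to 16494893 counts, single reads). The paper's methods add that the XO libraries were run on a different sequencer from all others. Thus the XO state cannot be told apart from the read type, sequencer or series, nor a change shared by the 12 lines from their series. *Rnf12*, listed as *Rlim*, was at 211 and 193 TPM in XX wild type, 77.6 and 79.7 in XX *Rnf12*+/-, 71.2 and 77.8 in XCastOMus and 3.53 in both XMusOCast libraries, whose single X is the one with the deletion. All 8 pluripotency markers exceeded 1 TPM in every library, with a summed level between 8667 and 14994 TPM. Feeder fibroblast markers ranged from 269 to 1371 summed TPM, and the 2 XX *Rnf12*+/- libraries lay at opposite ends of the first series, at 1371 in replicate 1 and 363 in replicate 2. Depth set the precision gene by gene: *Idi1* was read by 27 to 313 counts per library, the other 7 genes by 881 to 5992.

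In mm10 the genes lie at chr13:119690379-119708260 (*Hmgcs1*), chr13:8885501-8892451 (*Idi1*), chr14:63145150-63179578 (*Fdft1*, minus strand), chr15:59315077-59331192 (*Sqle*), chr10:76531588-76557138 (*Lss*), chr5:4081145-4104746 (*Cyp51*, minus strand), chr5:28071363-28078662 (*Insig1*) and chr15:82147181-82205379 (*Srebf2*). Exons of 5 of them overlap a gene on the opposite strand. The paper's methods describe strand-specific counting, but the submitters' notes name another counting tool, so this was not settled for the deposited counts. The longest overlap is that of *Fdft1* with *Ctsb*, which covers 18.3% of the *Fdft1* exon length. Whether processed copies elsewhere in the genome took or gave reads was not tested.

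SREBP2 binds sterol regulatory elements, usually beside boxes for NF-Y and Sp1, so the promoters of these genes were searched for the 3 motifs. RefSeq promoters (GRCm38.p6, 250 bases before to 50 after the RefSeq start) were matched for 6 of the 8 genes. *Sqle* and *Fdft1* were not matched. RefSeq starts can differ from the GENCODE starts of the spans given above. The *Idi1* stretch below lies inside its GENCODE span, and the *Srebf2* stretch runs into its own. On either strand, the sterol regulatory element core TCACNCCAC was found in 1 of the 6, the NF-Y box CCAAT in 6 and the Sp1 box GGGCGG in 6. Among all 32851 promoters, 1.24% held the first, 37.4% the second and 35.7% the third. Stretches upstream of the start are shown for *Hmgcs1*, which has the single sterol element match, 137 bases before the start, for *Idi1* and *Lss*, the members with the largest fold in the XO lines, and for *Srebf2*, which encodes the factor itself. Capitals mark matches to the motifs, where ATTGG and CCGCCC are the NF-Y and Sp1 boxes read on the other strand, and every stretch is given 5′ to 3′ on the plus strand of the locus named.
Hmgcs1 (chr13:119690104-119690342): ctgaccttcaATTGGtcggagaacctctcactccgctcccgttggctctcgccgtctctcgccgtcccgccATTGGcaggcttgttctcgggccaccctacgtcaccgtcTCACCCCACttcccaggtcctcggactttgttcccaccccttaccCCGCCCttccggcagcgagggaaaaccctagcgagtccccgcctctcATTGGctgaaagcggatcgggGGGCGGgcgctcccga
Idi1 (chr13:8885527-8885605): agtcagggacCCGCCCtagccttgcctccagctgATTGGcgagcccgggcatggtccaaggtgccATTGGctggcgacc
Lss (chr10:76531429-76531557): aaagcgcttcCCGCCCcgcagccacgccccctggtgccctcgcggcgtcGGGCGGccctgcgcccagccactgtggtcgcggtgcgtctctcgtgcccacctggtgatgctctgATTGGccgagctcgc
Srebf2 (chr15:82147048-82147250): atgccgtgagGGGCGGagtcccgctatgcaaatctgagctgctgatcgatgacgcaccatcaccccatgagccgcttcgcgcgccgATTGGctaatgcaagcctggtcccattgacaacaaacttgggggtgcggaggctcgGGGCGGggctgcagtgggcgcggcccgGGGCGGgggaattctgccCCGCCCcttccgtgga
A match describes the letters of these windows and does not show binding.

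Per transcript length, *Hmgcs1* was the most abundant of the enzymes and *Idi1* by far the least. In XX *Rnf12*+/- replicates 1 and 2 the levels were 159 and 177 TPM for *Hmgcs1*, 94.4 and 89 for *Sqle*, 81.5 and 96.3 for *Fdft1*, 88.9 and 90.1 for *Cyp51*, 23.1 and 29.2 for *Lss* and 8.62 and 8.93 for *Idi1*. The regulators were at 122 and 144 TPM (*Insig1*) and 113 and 133 TPM (*Srebf2*). Across the 17 groups the highest mean was 1.77 (*Srebf2*) to 2.46 (*Lss*) times the lowest for 7 genes, and 6.26 times for *Idi1*. The 2 XO groups held the top 2 places for *Hmgcs1*, *Idi1*, *Fdft1*, *Sqle* and *Lss*. *Cyp51* was highest in XMusOCast, with Deletion C between it and XCastOMus by TPM, *Insig1* was highest in Deletion F and *Srebf2* in Deletion B. The lowest group was Deletion D for *Hmgcs1*, *Cyp51* and *Insig1*, Deletion C for *Sqle*, Deletion A for *Idi1*, Deletion E for *Fdft1* and XX *Rnf12*+/- for *Lss* and *Srebf2*. Most neighbours in these orders could not be separated: of the 16 steps from group to group, only 2 (*Insig1*, *Srebf2*) to 4 (*Hmgcs1*, *Fdft1*) exceeded the SD between libraries of a group.

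**Figure D1:**
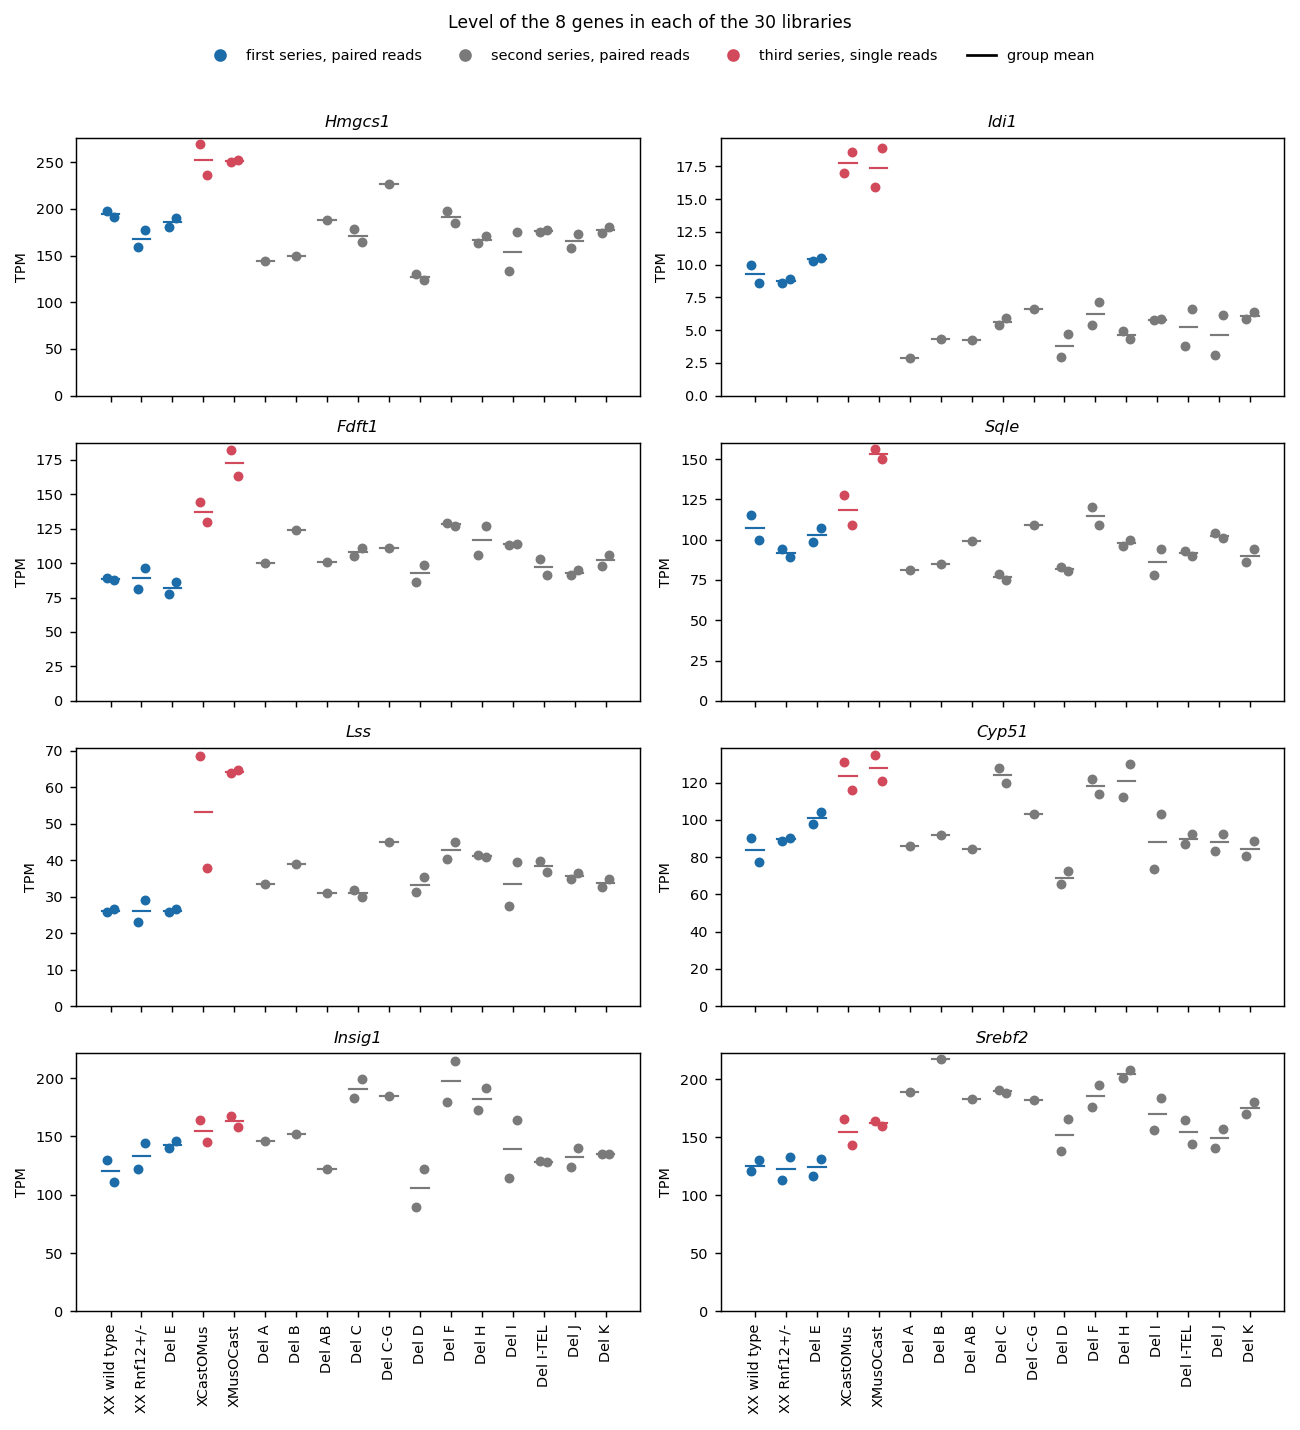
Each panel plots the level of 1 gene in TPM (vertical axis, from 0) in each of the 17 groups (horizontal axis), with 1 point per library, a bar for the group mean and the colour giving the library series. The XO libraries stand highest for *Hmgcs1*, *Idi1* and *Fdft1*, *Idi1* is lower and *Srebf2* higher in every grey library than in every blue one.

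The XO lines had higher levels of these genes than the XX *Rnf12*+/- cells. *Hmgcs1* was at 269 and 236 TPM in XCastOMus and at 250 and 252 TPM in XMusOCast, against 159 and 177 TPM in XX *Rnf12*+/- and 198 and 191 TPM in XX wild type. *Idi1* was at 17.0 and 18.6 TPM in XCastOMus and 15.9 and 18.9 TPM in XMusOCast, against 8.62 to 10.5 TPM in the 6 libraries of the first series. *Fdft1* was at 144 and 130 TPM in XCastOMus and 182 and 163 TPM in XMusOCast, against 77.4 to 96.3 TPM in the first series. For these 3 enzymes the 4 XO libraries lay above all 26 others, a separation found for 4.80% of the genes tested. *Lss* was at 68.5 and 38.0 TPM in XCastOMus and at 63.9 and 64.8 TPM in XMusOCast, so that XCastOMus replicate 2 lay nearer to XX *Rnf12*+/- (23.1 and 29.2 TPM) than to replicate 1. *Lss*, *Cyp51* and *Srebf2* joined the first 3 when the XO libraries were compared with the 6 of the first series alone, where 6 of 8 genes did not overlap and 10.9% of the genes tested lay as far apart. *Sqle* and *Insig1* overlapped, with the lowest XO library (109 and 145 TPM) below the highest of the first series (115 and 146 TPM).

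In XCastOMus 7 of the 8 genes were higher than in XX *Rnf12*+/- in edgeR's quasi-likelihood test with Benjamini-Hochberg adjustment over the 11703 genes, where 20.1% of all genes were called higher. The log2 fold change was 0.70 for *Hmgcs1* (SE 0.0936, adjusted p = 1.4e-05), 0.73 for *Fdft1* (SE 0.102, adjusted p = 2.2e-05), 1.13 for *Lss* (SE 0.185, adjusted p = 0.000112), 1.12 for *Idi1* (SE 0.232, adjusted p = 0.000921), 0.57 for *Cyp51* (SE 0.115, adjusted p = 0.000757), 0.48 for *Sqle* (SE 0.0947, adjusted p = 0.000669) and 0.44 for *Srebf2* (SE 0.104, adjusted p = 0.00281). *Insig1* differed by 0.33 and did not pass (SE 0.136, adjusted p = 0.063). The median over the 8 genes was 0.63, beside -0.02 over all genes tested. The size of the *Lss* difference rested on 1 library, as it was 0.64 without XCastOMus replicate 1. Fitted on the 4 libraries of the comparison alone, *Hmgcs1*, *Idi1*, *Fdft1* and *Cyp51* kept the call and *Sqle*, *Lss* and *Srebf2* lost it.

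In XMusOCast all 8 genes were higher than in XX *Rnf12*+/- by the same test, where 25.6% of all genes were called higher. The largest log2 fold changes were those of *Lss*, at 1.45 (SE 0.186, adjusted p = 5.1e-06), *Idi1*, at 1.14 (SE 0.232, adjusted p = 0.000526), and *Fdft1*, at 1.1 (SE 0.102, adjusted p = 1.3e-07). They were followed by *Sqle* at 0.89 (SE 0.095, adjusted p = 6.5e-07), *Hmgcs1* at 0.73 (SE 0.0936, adjusted p = 5.0e-06), *Cyp51* at 0.67 (SE 0.115, adjusted p = 0.000107) and *Srebf2* at 0.55 (SE 0.104, adjusted p = 0.000281). *Insig1*, the gene whose product restrains the pathway, had the smallest difference, 0.44 (SE 0.136, adjusted p = 0.0108), and its adjusted p became 0.104 without XX *Rnf12*+/- replicate 1 and 0.0677 without XMusOCast replicate 1. The median was 0.81, beside -0.04 over all genes tested. Both XO comparisons use the same 2 XX *Rnf12*+/- libraries, so they are not independent of each other. With XX wild type as the reference in their place, all 8 genes were called higher in both lines, from 0.25 (*Sqle* in XCastOMus, adjusted p = 0.0407) to 1.45 (*Lss* in XMusOCast). In these bulk libraries a larger share of cells with high expression and more RNA per cell cannot be told apart.

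The remaining enzymes of the pathway were called higher more often than lower. Of 15 other synthesis enzymes tested, 8 were higher and 1 lower in XCastOMus (median 0.54), and 9 were higher and 2 lower in XMusOCast (median 0.61). The X-linked *Ebp* and *Nsdhl* are counted per X copy in these numbers, and *Nsdhl*, 1 of the 8 in XCastOMus, had a lower total level there (110 and 86 TPM) than in XX *Rnf12*+/- (123 and 138 TPM). *Fdps*, farnesyl diphosphate synthase, had the largest difference of the pathway (2.28 and 2.60 on the log2 scale), with 7.84 and 10.4 TPM in XX *Rnf12*+/- against 35.7 to 50.2 TPM in the XO libraries. *Fdps* was chosen for mention after its values were seen. By the fixed rule for named genes, *Mvd*, which makes isopentenyl diphosphate, was higher by 0.70 and 0.99 in XCastOMus and XMusOCast. *Dhcr7*, the last reductase of the pathway, was higher by 0.67 and 0.89. In XCastOMus, replicate 2 lay close to XX *Rnf12*+/- replicate 2 for both genes. *Mvd* was at 186 and 113 TPM there, against 88.6 and 110 TPM in XX *Rnf12*+/-. *Dhcr7* was at 74.1 and 49.5 TPM, against 32.0 and 52.0 TPM. *Msmo1*, a sterol methyl oxidase, differed by 0.46 and 0.50 and did not pass in either line.

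**Figure D2:**
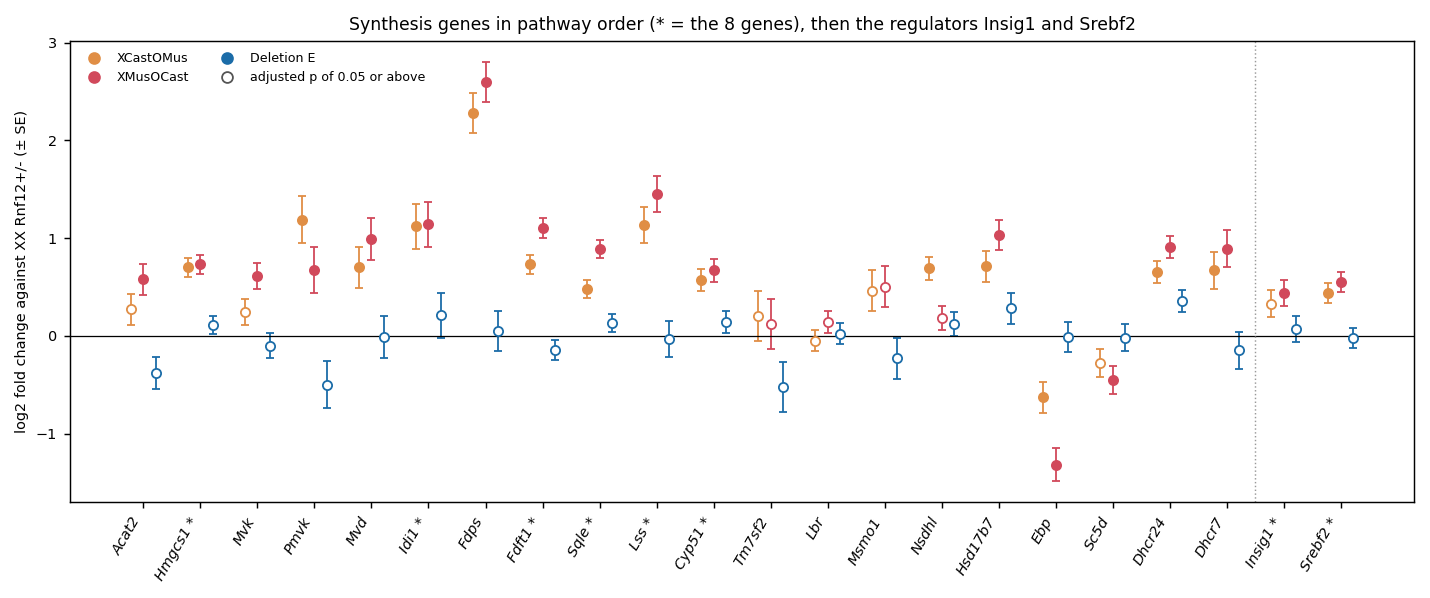
The log2 fold change against XX *Rnf12*+/- (vertical axis, bars are SE) is plotted for synthesis genes in pathway order (horizontal axis, the 8 genes starred) in XCastOMus, XMusOCast and Deletion E, with open points where the adjusted p is 0.05 or above. The XO points of the starred genes lie between 0.33 and 1.45 and those of Deletion E between -0.15 and 0.21.

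Genes around the pathway were called in both directions, as were genes at large. Of the 11703 genes tested, 2351 were called higher and 2462 lower in XCastOMus, and 2997 and 3271 in XMusOCast. Of the 5 other SREBP control genes, 0 were higher and 1 lower in XCastOMus (1 at an unadjusted p under 0.05), and 1 was higher and 2 lower in XMusOCast. *Insig2*, the second INSIG gene, was lower in both (log2 fold change -0.96 and -0.78), and *Srebf1*, which encodes the SREBP of fatty acid synthesis, was at -0.00 in XCastOMus and 0.43 in XMusOCast. Of 6 genes of sterol uptake and transport, 1 was higher and 1 lower in XCastOMus, and 2 were higher and 2 lower in XMusOCast. *Npc2*, which carries cholesterol out of the lysosome, fell by 0.54 and 0.98 on the log2 scale. The list of LXR genes and efflux holds genes that respond to surplus sterol through the LXR receptors and *Nr1h2*, which encodes such a receptor. Of its 5 tested genes 1 was higher and 2 were lower in each line. The higher one was *Mylip*, an LXR target, in XCastOMus (0.48) and *Nr1h2*, named after its values were seen, in XMusOCast (0.48). The cholesterol exporter *Abca1* was lower in both (log2 fold change -2.40 and -1.96). It was at 3.17 to 5.69 TPM in the XO libraries, against 24.3 and 19.5 TPM in XX *Rnf12*+/- but 14 and 5.75 TPM in XX wild type. Of 10 fatty acid synthesis genes, 5 were higher and 2 lower in XCastOMus and 6 were higher and 2 lower in XMusOCast, among them *Scd2* (0.41 and 0.50) and *Fads2* (0.71 and 1.00).

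Markers of other cells and states were read in the same libraries, where 2462 of all 11703 genes were called lower in XCastOMus and 3271 in XMusOCast. Of 9 feeder fibroblast markers tested, 1 was higher and 0 were lower in XCastOMus, with 2 at an unadjusted p under 0.05, and 0 were higher and 2 lower in XMusOCast. Their summed level was 302 to 686 TPM in the XO libraries. Of 8 pluripotency markers, 4 were lower in XCastOMus and 5 in XMusOCast, with 0 higher in either, *Sox2* at -1.06 and -0.81 among them. The part of these differences in the levels of the 8 genes was not tested. The median log2 fold change of tested genes within 5 Mb of a member lay between -0.41 and 0.32 over all comparisons made.

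The 2 XO lines differ in the X they kept and in whether an intact *Rnf12* is left. The fitted difference of XMusOCast from XCastOMus was positive for all 8 genes, from 0.01 to 0.41. By mean TPM, however, *Hmgcs1* and *Idi1* stood higher in XCastOMus. Of the 8 genes, 2 passed, where 4.41% of all genes were called higher. *Sqle* was at 156 and 150 TPM in XMusOCast and 128 and 109 TPM in XCastOMus, which gave a log2 difference of 0.41 in edgeR's quasi-likelihood test (SE 0.0944, adjusted p = 0.0126). *Fdft1* was at 182 and 163 TPM against 144 and 130 TPM, a log2 difference of 0.37 (SE 0.101, adjusted p = 0.0289). The ranges do not overlap for either gene. Neither call held with any of XCastOMus replicate 2, XMusOCast replicate 1 or XMusOCast replicate 2 left out, where the adjusted p by the same test ran from 0.0607 to 0.108 for *Sqle* and from 0.0638 to 0.225 for *Fdft1*.

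XX *Rnf12*+/- and XX wild type cells differ by 1 copy of *Rnf12*. None of the 8 was called between XX *Rnf12*+/- and XX wild type when the 4 libraries were fitted alone by edgeR's quasi-likelihood test, and 0 of the 8 reached an unadjusted p under 0.05. DESeq2 called 0 of the 8. The log2 fold changes ran from -0.21 (*Sqle*) to 0.17 (*Insig1*) and the lowest adjusted p was 0.69. In that comparison 1 of 16944 genes was called (0.00590%), and DESeq2 called 264. In both groups the feeder marker sum was higher in replicate 1 (1121 TPM in XX wild type, 1371 TPM in XX *Rnf12*+/-) than in replicate 2 (410 and 363 TPM). With the replicate number as a block, *Sqle* passed (-0.21, adjusted p = 0.035 in edgeR's quasi-likelihood test) and the other 7 genes did not. Deletion E, which shares its series with XX *Rnf12*+/- and lacks 1 copy of the stretch that holds *Nsdhl*, also had 0 of the 8 genes called by edgeR's quasi-likelihood test, with 0 at an unadjusted p under 0.05 and 0 called by DESeq2, where 0.273% of all genes were called. Its log2 fold changes ran from -0.15 (*Fdft1*) to 0.21 (*Idi1*).

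The 12 deletion lines of the second series differed from XX *Rnf12*+/- in a gene-specific way. Over the 96 combinations of 8 genes and 12 lines, 25 were called higher and 11 lower by edgeR's quasi-likelihood test, where 10.4% of all gene and line combinations were called higher and 11.4% lower. *Srebf2* made up 10 of the 25, and *Idi1* 8 of the 11. *Srebf2* lay at 138 (lowest), 181 (median) and 217 (highest) TPM in the 20 libraries against 113 to 133 TPM in the first series. Its fitted difference was positive in 12 of 12 lines, from 0.23 (Deletion J) to 0.79 (Deletion B), and it was called in all but I-TEL and J. *Idi1* lay at 2.84, 5.41 and 7.12 TPM against 8.62 to 10.5 TPM, with a fitted difference that was negative in 12 of 12 lines, from -1.63 (Deletion A) to -0.46 (Deletion C-G), and was called in A, B, AB, C, D, H, I-TEL and J. All 20 libraries lay above all 6 of the first series for *Srebf2*, as for 1.39% of genes tested, and below all 6 for *Idi1*, as for 2.38%. The gene for the factor was thus higher, and that for 1 of the enzymes lower, in lines that share a library series. The 115 tested genes within 5 Mb of *Srebf2* had a median log2 fold change between 0.00 (I-TEL) and 0.26 (A) in the 12 lines, and the part of that shift in *Srebf2* was not tested.

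The other 6 genes were called in a few lines each. *Fdft1* was higher in B, F, H and I (0.33 to 0.52) and *Lss* in C-G, F and H (0.61 to 0.74), both with positive values in 12 of 12 lines. *Insig1* and *Cyp51* were each higher in C, F and H, by 0.41 to 0.56 and 0.39 to 0.45. *Cyp51* was lower in D (-0.35), where the 24 tested genes within 5 Mb had a median of -0.39. *Hmgcs1* was higher in C-G (0.39) and lower in D (-0.37), and *Sqle* was higher in F (0.31) and lower in C (-0.28). The reference weighed on these counts. Without XX *Rnf12*+/- replicate 1, the library with the highest feeder marker sum, 6 higher and 4 lower calls were left of the 36, of which *Srebf2* made 5, *Idi1* 3, *Cyp51* 1 and *Hmgcs1* 1. With XX wild type as the reference, 46 combinations were called, with *Srebf2* higher in 10 lines, *Idi1* lower in 9, *Sqle* lower in 7 and *Hmgcs1* lower in 5.

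Other lists in the same 12 lines gave 16 higher and 6 lower calls of 180 for the other synthesis enzymes, 5 and 3 of 60 for SREBP control, 16 and 4 of 72 for sterol uptake and transport, 13 and 8 of 60 for LXR genes and efflux and 19 and 10 of 120 for fatty acid synthesis. *Mvd* was higher in 6 lines and *Msmo1* in 3. In the second series both stood highest in Deletion F clone 2, I-TEL and J, at 189 to 279 TPM and 91.2 to 116 TPM. The SREBP control gene *Mbtps1* was highest in the same libraries, at 109 to 121 TPM. All 3 genes lie on chromosome 8. Whether they shared a shift of that chromosome, or another that lies outside the pathway, was not tested. The feeder fibroblast markers gave 9 higher and 14 lower calls of 108, the primitive endoderm markers 0 and 2 of 24, and the pluripotency markers 6 and 34 of 96. Whether these differences bear on the 8 genes was not tested.

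**Figure D3:**
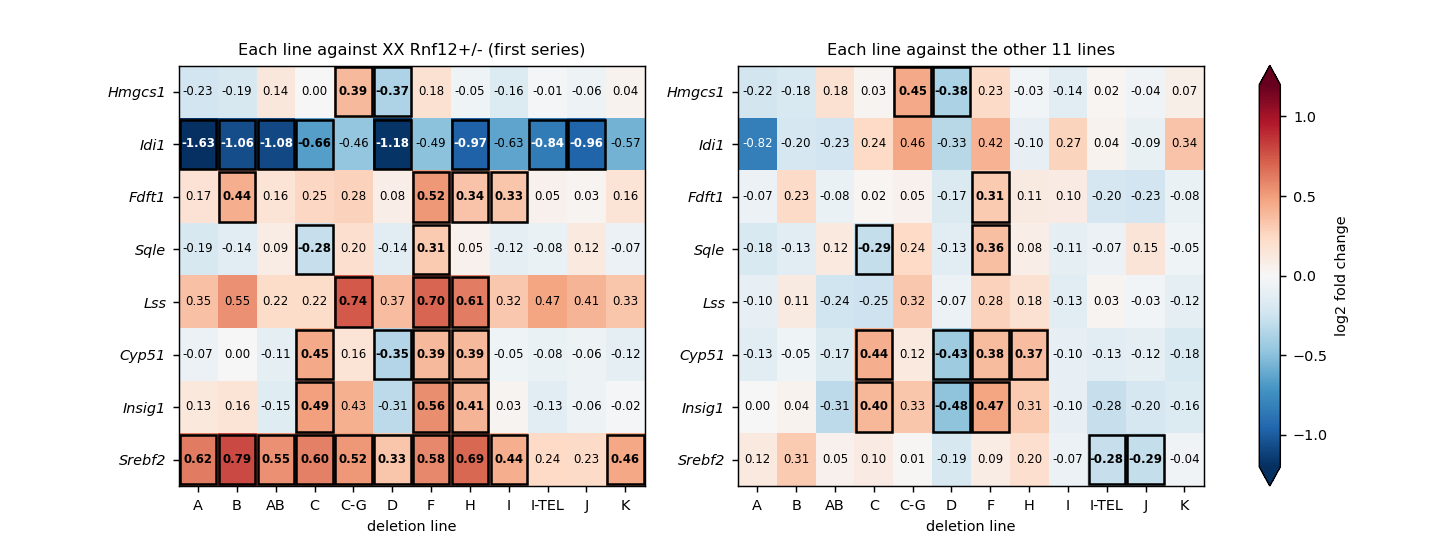
Log2 fold changes of the 8 genes (rows) in the 12 deletion lines (columns) are written in each cell, against XX *Rnf12*+/- on the left and against the other 11 lines on the right, with a frame where the adjusted p is under 0.05. On the left the *Idi1* row is negative and the *Srebf2* row positive throughout, while on the right 14 of 96 cells are framed, 3 of them in the Deletion D column and 4 in the Deletion F column.

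Comparing each line with the mean of the other 11 lines keeps to 1 library series. Here 8 of the 96 combinations were higher and 6 lower by edgeR's quasi-likelihood test, where 5.63% of all gene and line combinations were called higher and 4.88% lower. Deletions F and D lay at the 2 ends. Averaged over the 8 genes, with each centred on its mean over the 20 libraries, Deletion F was at 0.27 and 0.31 log2 units and Deletion D at -0.33 and -0.17. Deletion C-G was next to F at 0.23, and Deletion J replicate 1 lay between the 2 Deletion D clones at -0.19.

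In Deletion F, all 8 genes had positive values (median 0.34, beside 0.02 over all genes) and 4 were called, where 3.06% of all genes were called higher. *Sqle* was at 120 and 109 TPM, against a median of 93.6 TPM in the series, 0.36 higher on the log2 scale (SE 0.0695, adjusted p = 0.00776). *Insig1* was at 180 and 215 TPM against a median of 143 TPM (0.47, SE 0.0989, adjusted p = 0.0131). *Cyp51* was at 122 and 114 TPM against 92.1 TPM (0.38, SE 0.0842, adjusted p = 0.0168), and *Fdft1* at 129 and 127 TPM against 105 TPM (0.31, SE 0.075, adjusted p = 0.0228). Each call was lost when 1 of the 2 Deletion F clones was left out: *Sqle* (0.27, adjusted p = 0.139) and *Cyp51* (0.31, adjusted p = 0.199) without clone 1, *Insig1* (0.37, adjusted p = 0.119) without clone 2 and *Fdft1* without either (adjusted p = 0.183 and 0.0522). Of the other 15 synthesis enzymes 5 were higher and 0 lower in Deletion F, and of 10 fatty acid synthesis genes 4 were higher and 0 lower. Among the 15, *Mvd* (171 and 279 TPM) and *Msmo1* (68.8 and 116 TPM), both on chromosome 8, stood well above clone 1 in clone 2. Its feeder marker sums were low, at 335 and 327 TPM.

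Deletion D was the reverse. All 8 values were negative (median -0.26, beside 0.01 over all genes) and 3 were called, where 7.22% of all genes were called lower. *Hmgcs1* was at 130 and 124 TPM, the 2 lowest values of the 30 libraries (log2 fold change -0.38, SE 0.0733, adjusted p = 0.00332). *Cyp51* was at 65.3 and 72.4 TPM, again the 2 lowest (-0.43, SE 0.0913, adjusted p = 0.00519), and *Insig1* at 89.4 and 122 TPM (-0.48, SE 0.109, adjusted p = 0.00827). As given above, the tested genes near *Cyp51* were also lower in Deletion D than in XX *Rnf12*+/- by their median. The part of that shift in *Cyp51* was not tested. *Insig1* (-0.29, adjusted p = 0.27) and *Cyp51* (-0.39, adjusted p = 0.122) lost the call without clone 1 and *Hmgcs1* (-0.32, adjusted p = 0.069) without clone 2. The feeder markers moved the other way, with 9 of 9 positive, 2 called higher and summed levels of 651 and 641 TPM. Of the other 15 synthesis enzymes 0 were higher and 2 lower.

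The other 5 lines with calls had 1 to 3 each. In Deletion C, *Cyp51* (128 and 120 TPM) and *Insig1* (183 and 199 TPM) were higher by 0.44 (SE 0.0837, adjusted p = 0.000399) and 0.40 (SE 0.0996, adjusted p = 0.00372), and *Sqle* (78.5 and 74.9 TPM) was lower (-0.29, SE 0.0741, adjusted p = 0.00469). In that line 21.5% of all genes were called higher and 20.1% lower. Without Deletion C clone 2, *Sqle* (-0.25, adjusted p = 0.0916) and *Insig1* (0.34, adjusted p = 0.0911) were lost. Of the other 15 synthesis enzymes 0 were higher and 5 lower in Deletion C. *Hmgcs1* was higher in Deletion C-G (227 TPM in its 1 library, 0.45, SE 0.0924, adjusted p = 0.0332), where 0.419% of all genes were called higher, and lost the call without Deletion J replicate 1 (adjusted p = 0.0536). The test of this single clone takes its spread from the other groups. *Cyp51* was higher in Deletion H (112 and 130 TPM, 0.37, SE 0.0843, adjusted p = 0.0153), where 3.11% were called higher, but not with either clone left out (adjusted p = 0.0668 and 0.429).

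*Srebf2* was lower in the 2 lines of the second founder. It was at 165 and 144 TPM in I-TEL (-0.28, SE 0.0803, adjusted p = 0.0201, where 7.35% of genes were called lower) and 141 and 157 TPM in J (-0.29, SE 0.0804, adjusted p = 0.0147, where 9.79% were called lower), against a median of 181 TPM in the series. The call was lost without I-TEL clone 2 (-0.18, adjusted p = 0.418) and without either J clone (adjusted p = 0.273 and 0.0556). Taking the 4 libraries of I-TEL and J together against the 16 of the first founder, *Srebf2* was lower (log2 fold change -0.32, SE 0.0603, adjusted p = 0.00051) and kept the call in all 27 alternatives. *Fdft1* (-0.24, SE 0.0594, adjusted p = 0.00491) and *Insig1* (-0.27, SE 0.0797, adjusted p = 0.0142) were lower too, where 16.6% of all genes were called lower. *Fdft1* lost the call without I-TEL clone 2 (adjusted p = 0.0559), as did *Insig1* (adjusted p = 0.0651), which also lost it without J clone 1 (adjusted p = 0.0881). In the same libraries 6 of 9 feeder markers were higher (median 0.90), with summed levels from 607 to 865 TPM, and their part was not tested.

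Within the second series the 8 genes tended to vary in the same direction, some pairs hardly at all. All 28 pairs had a positive Pearson correlation of log2 CPM over the 20 libraries, from 0.0146 to 0.919 with a median of 0.426. The tightest pair was *Insig1* and *Cyp51*, and *Sqle* and *Srebf2* were the loosest. By Spearman rho, *Idi1* and *Srebf2* were at -0.0481. The share of positive pairs among other genes was not computed. Over all 30 libraries the median was 0.623 and 27 of 28 were positive, the exception being *Idi1* with *Srebf2* at -0.221. The mean of the 8 genes went down as the feeder marker sum went up (Pearson r -0.674, Spearman rho -0.702 over 20 libraries), while the pluripotency marker sum (0.32 and 0.358) and total counts (0.427 and 0.48) went with it more weakly. The libraries share lines, clones and a series, so these are descriptions without a test.

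**Figure D4:**
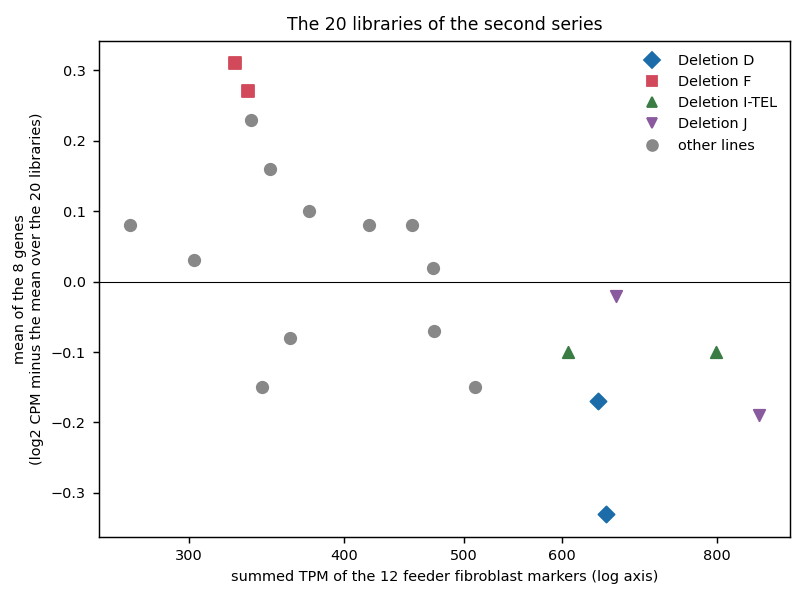
For each of the 20 libraries of the second series, the mean of the 8 genes (log2 CPM minus the mean over these libraries, vertical axis) is plotted against the summed TPM of 12 feeder fibroblast markers (horizontal log axis). The Deletion F libraries (335 and 327 TPM) stand highest, at 0.27 and 0.31, and Deletion D (651 and 641 TPM), I-TEL and J lie below 0 at the right.

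By the likeness of log2 CPM to that mean over the 20 libraries, the genes outside all lists that came closest were *Twf1* (r 0.883, rho 0.865), *Pdlim5* (0.863, 0.856), *Uba3* (0.856, 0.832), *Tnrc6b* (0.826, 0.848), the processed pseudogene *Gm37784* (0.797, 0.785), *Rnf24* (0.777, 0.782), *Inip* (0.777, 0.797), *Dnajb9* (0.764, 0.806), *Ice1* (0.752, 0.747) and *Atf7ip* (0.752, 0.755). The 99th percentile of r over all other genes was 0.625. With Deletion F replicate 2 and Deletion D replicate 1 left out, r of the 10 ran from 0.61 (*Ice1*) to 0.868 (*Uba3*). Over all 30 libraries, r stayed above 0.4 for *Twf1* (0.742), *Ice1* (0.75), *Atf7ip* (0.621) and *Tnrc6b* (0.498) and was below 0 for *Pdlim5*, *Uba3*, *Gm37784*, *Inip* and *Dnajb9*.

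The hybrid genome allows reads to be assigned to the *Mus* or the *Cast* allele. Of all counts, 12.18% to 12.65% were allelic in the paired series and 21.92% to 22.03% in the XO libraries. Shares were computed where a gene had at least 20 allelic reads, which held for 7 genes in all 30 libraries and never for *Idi1* (2 to 16 allelic reads). *Hmgcs1* was read more from *Mus*, with a *Cast* share of 31.5% to 35.8% in the first series (median 34.8%), 18.0% to 33.4% in the second (median 28.3%) and 30.8% to 35.0% in the third (median 33.1%). *Srebf2* leaned the same way, with medians of 38.1%, 39.1% and 41.4%. *Fdft1* leaned to *Cast*, with medians of 63.5%, 64.4% and 57.2%. The medians of *Sqle*, *Lss*, *Cyp51* and *Insig1* lay between 44.2% and 53.5%. The *Hmgcs1* shares of the XO libraries overlapped those of the first series, but both XMusOCast libraries (31.3% and 30.8%) lay below its lowest value. The 4 *Fdft1* shares (55.1% to 60.4%) lay below all 6 of the first series (61.1% to 65.4%). Whether reads of the 2 alleles map equally well at these genes was not tested, and the read type differs between these series.

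**Figure D5:**
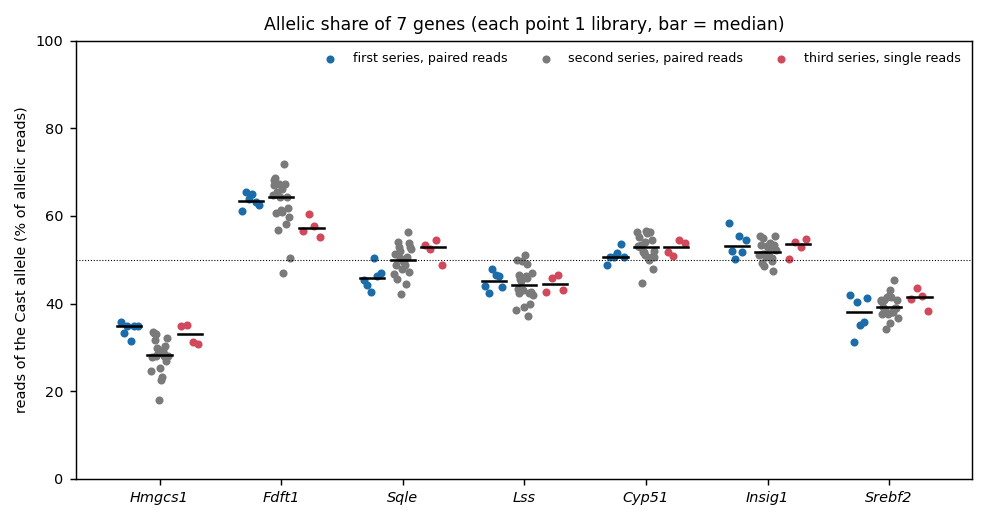
The share of allelic reads from the *Cast* allele (vertical axis, percent) is plotted for 7 genes (horizontal axis), with 1 point per library, a bar at the median of each series and a dotted line at equal shares. *Hmgcs1* and *Srebf2* lie below the line in every library and *Fdft1* above it in all but 1.

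Of the genes listed, 3 lie on the X chromosome. *Ebp*, the sterol isomerase at chrX:8185329-8193512, was at 118 and 105 TPM in XX *Rnf12*+/-, 32.5 and 34.6 TPM in XCastOMus and 18.2 and 22.1 TPM in XMusOCast. After correction for X copy number it was still lower per copy, by log2 fold changes of -0.63 and -1.32 (edgeR's quasi-likelihood test, adjusted p = 0.00485 and 4.5e-06). *Nsdhl*, the sterol dehydrogenase at chrX:72918557-72958514, was at 123 and 138 TPM in XX *Rnf12*+/-, 110 and 86 TPM in XCastOMus and 72.6 and 60.3 TPM in XMusOCast. Per copy *Nsdhl* was higher in XCastOMus (0.69, adjusted p = 0.000212) and at 0.18 in XMusOCast, which did not pass. *Mbtps2*, the gene of the protease that makes the second cut in SREBP, at chrX:157535371-157598715, was at 28 and 29.1 TPM in XX *Rnf12*+/-, 11.8 and 13.8 TPM in XCastOMus and 6.29 and 7.00 TPM in XMusOCast, or -0.05 and -0.96 per copy.

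These 3 genes also lie in single deletions. The *Cast* share of *Ebp* was 98.4% in Deletion A and 100% (60 allelic reads) in Deletion AB, that of *Nsdhl* 98% and 97.5% in Deletion E and 100% (54 reads) in Deletion C-G, and that of *Mbtps2* 97.1% and 100% in I-TEL, each a line that lacks the *Mus* copy of the gene. *Ebp* was at 53.5 and 62.6 TPM in Deletions A and AB, *Nsdhl* at 65.9 and 79.3 TPM in Deletion E and 79.1 TPM in C-G, and *Mbtps2* at 14.1 and 19.2 TPM in I-TEL, each below both XX *Rnf12*+/- libraries. Lines whose deletion spares the gene were as low in places. *Mbtps2* was at 17.4 TPM in Deletion A and 17.7 and 19.6 TPM in D, and *Ebp* at 64.8 and 75 TPM in C and 67.5 TPM in 1 clone of I. In Deletion A the *Cast* share of *Mbtps2* was 76.0%. The median was 52.9% over the libraries of the second series with at least 50 allelic reads. Among the 8 members, 1 was called higher and 1 lower against XX *Rnf12*+/- in each of A and AB (where 31.6% and 16.8% of all genes were called), 3 higher in C-G (14.1%), 1 lower in I-TEL (23.3%) and 0 in E (0.273%) by edgeR's quasi-likelihood test. Against the other 11 lines, 0 were called in A (2 at an unadjusted p under 0.05) and AB (0 at an unadjusted p under 0.05), where 7.31% and 2.67% of all genes were called and DESeq2 called 0 members, beside *Hmgcs1* in C-G and *Srebf2* in I-TEL.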

How the data were processed

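RNA-seq of 30 mESC libraries (TruSeq stranded mRNA, 50-base reads) was analysed from gene counts. Per the labels, the authors trimmed reads, aligned them to an N-masked mm10 genome with HISAT2 2.2.1, assigned allelic reads with SNPsplit and deposited raw counts per gene, in total and per allele. The submitters' notes and the methods name different counting tools (HTSeq 0.12.4 in the notes).

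TPM was computed here from these counts and GENCODE M21 exon lengths. Groups were compared with edgeR 4.0.16 (R 4.3.3, quasi-likelihood test, Benjamini-Hochberg threshold 0.05) in 1 fit of all 30 libraries, with 1 coefficient per group, TMM factors from autosomal genes and an offset for X copy number, over 11703 genes above 5 TPM in XX *Rnf12*+/-. XX *Rnf12*+/- and XX wild type were fitted alone (16944 genes with at least 10 counts in 2 of 4 libraries). A difference in group means for a line with 1 library takes its spread from the other groups. Scripts were tested on simulated data. Alternatives were RLE or library-total scaling, DESeq2 1.42.0, other filters, fewer libraries, a replicate block, XX wild type as reference and leaving out each library. Named besides the 8 genes are up to 4 genes per list with the most calls, X-linked *Ebp*, *Nsdhl* and *Mbtps2* and the 10 genes most like the mean of the 8. The members and lists were chosen with earlier results of these data known. Shares of allelic reads carry counting error only. Results on some genes of the lists are not reported here.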

Additional observations from a re-analysis of the deposited data

Results flagged for a closer look

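Differences between groups that passed edgeR's quasi-likelihood test of the difference itself are given here with their log2 fold change. Between the XO lines these were *Sqle* (0.41, adjusted p = 0.0126) and *Fdft1* (0.37, adjusted p = 0.0289), both higher in XMusOCast and both lost without XCastOMus replicate 2.

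Between a deletion line and the other 11 lines they were *Sqle* (-0.29, adjusted p = 0.00469), *Insig1* (0.40, adjusted p = 0.00372) and *Cyp51* (0.44, adjusted p = 0.000399) in Deletion C, *Hmgcs1* (0.45, adjusted p = 0.0332) in C-G, *Hmgcs1* (-0.38, adjusted p = 0.00332), *Insig1* (-0.48, adjusted p = 0.00827) and *Cyp51* (-0.43, adjusted p = 0.00519) in D, *Sqle* (0.36, adjusted p = 0.00776), *Insig1* (0.47, adjusted p = 0.0131), *Fdft1* (0.31, adjusted p = 0.0228) and *Cyp51* (0.38, adjusted p = 0.0168) in F, *Cyp51* (0.37, adjusted p = 0.0153) in H, *Srebf2* (-0.28, adjusted p = 0.0201) in I-TEL and *Srebf2* (-0.29, adjusted p = 0.0147) in J, by edgeR's quasi-likelihood test. Of these 14, *Cyp51* in Deletion C kept its call under each of its 27 alternatives.

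Between the second and the first founder they were *Insig1* (-0.27, adjusted p = 0.0142), *Fdft1* (-0.24, adjusted p = 0.00491) and *Srebf2* (-0.32, adjusted p = 0.00051), and *Srebf2* kept its call under each of 27 alternatives. No group held 4 or more libraries, so single libraries were not tested as outliers.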

How the results depend on the processing

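Of the 70 called differences of the 8 genes, 20 kept their call under every alternative counted here. The count leaves out 2 fits added after seeing the data, a crossed block and a block in a fit of the compared groups. In the latter, all 7 genes called in XCastOMus lost the call (adjusted p = 0.083 to 0.186 in edgeR's quasi-likelihood test). The 1072 values under the alternatives counted held the call in 957 cases and missed the threshold in 115, and 0 changed direction. Fitted on the compared groups alone, 4 genes were called in XCastOMus (7 before) and 0 in XMusOCast against XCastOMus (2 before, 1 with library totals). Leaving out 1 library gave 0 to 3 genes for the latter, 10 to 36 calls for the 12 lines against XX *Rnf12*+/-, 1 to 4 genes for the founders, 11 to 18 calls for each line against the others, 7 to 8 genes for each XO line and 0 for Deletion E. Likeness to the mean of the 8 genes turned negative over all 30 libraries for *Pdlim5* (-0.00912), *Uba3* (-0.344), *Gm37784* (-0.211), *Inip* (-0.0264) and *Dnajb9* (-0.259), and the cause was not tested.

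The labels do not say what same-numbered libraries share. Their deviations correlated at 0.746 between XX wild type and XX *Rnf12*+/-, the highest of 78 pairs of groups, a hint from the data that the number carries a shared effect there, but at -0.306, -0.292 and -0.263 between XX *Rnf12*+/- and Deletion E, XCastOMus and XMusOCast. With the replicate block 1 gene, *Sqle*, was called between XX *Rnf12*+/- and XX wild type (-0.21, adjusted p = 0.035 in edgeR's quasi-likelihood test), and 1083 genes in all were higher and 1129 lower. Among the members, a block in a fit of the 2 groups, chosen after seeing the data, left 0 calls in XCastOMus and 8 in XMusOCast, where 163 and 1994 of all genes were higher and 67 and 1970 lower. A crossed block, also chosen after seeing the data, left 1119 genes higher and 1109 lower in XCastOMus.

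Other counts over all genes moved by over 1.5 times. XX *Rnf12*+/- against XX wild type (1 gene) gave 117 higher and 147 lower with DESeq2, 182 and 187 within the fit of 30 libraries, and 0 without a filter or without either XX wild type library. Deletion E (32 genes) gave 75 higher and 32 lower with DESeq2, 361 and 239 without a filter, 396 and 371 against XX wild type, 0 in the fit of its groups alone or with either added block, and 5 to 324 with 1 library left out. XCastOMus (4813 genes) gave 731 and 728 in the fit of its groups alone. XMusOCast against XCastOMus (1051 genes) gave 14 and 18 there, and 224 and 271 without either XMusOCast library. The 12 lines against XX *Rnf12*+/- (30680 calls) gave 14237 without XX *Rnf12*+/- replicate 1, and against each other (14764 calls) 23706 without a filter. *Idi1*, with 27 to 313 counts, is the least precise of the 8 genes.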

Other observations

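*Abca1*, the sterol exporter that LXR induces, was lower than in XX *Rnf12*+/- in 7 of the 12 lines by edgeR's quasi-likelihood test, with a negative value in each of the 12 and a median log2 fold change of -1.15. Its level was 24.3 and 19.5 TPM in XX *Rnf12*+/-, but 14 and 5.75 TPM in XX wild type and 21.7 and 18.6 TPM in Deletion E. The *Abca1* levels of XX wild type thus fall within the range of the 20 libraries of the 12 lines (6.63 to 19.9 TPM) for 1 of its 2 libraries and below it for the other.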
